A study of Homo sapiens with 12 samples.

Results

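The ABC family was taken as every row of the count table whose Ensembl identifier carries a symbol made of ABC, a letter from A to G and a number with nothing after it, pseudogenes left out. This gave 45 genes of 63568 identifiers, with 12 in group ABCA, 9 in ABCB, 11 in ABCC, 4 in ABCD, 1 in ABCE, 3 in ABCF and 5 in ABCG. RNA was counted in 12 libraries of MDA-MB-231, an established triple negative breast cancer line that here also carried a nuclear GFP histone, grown as 3D droplets in Matrigel and listed as wild type. C1 was untreated and taken on day 2, C2 was untreated and taken on day 4, and the treated samples received 0.0005, 0.005, 0.05 or 0.5 μM Paclitaxel on day 2, as the labels state, and were taken on day 4, with 2 biological replicates in each of the 6 conditions. The study's culture methods name a later day for the drug in the imaged cultures. That day lies after the sampling on day 4, so the length of exposure rests on the labels alone. All samples were freed from the gel with collagenase and dispase before lysis, and a vehicle for the untreated samples is not named in the sources used here. Comparing conditions asks how RNA levels differed with the drug at each dose, between the days without drug, and along the doses.

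ABC proteins bind and hydrolyse ATP, and most of them use it to move a substrate across a membrane. ABCB1 (P-glycoprotein), several ABCC members and ABCG2 export drugs, and Paclitaxel is a classic ABCB1 substrate. Other members carry lipids, bile salts, peptides, heme precursors or very long chain fatty acids, while ABCE1 and the ABCF proteins have no membrane part and work on ribosomes.

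Total counts per library ran from 38380629 to 79169121. Treated libraries had a count in 34591 to 39480 genes and untreated libraries in 30608 to 33824. The replicates of C1 differed most, with a median absolute log2 difference of 0.42 over 11193 genes against 0.06 to 0.16 in the other conditions, and C1 replicate 1 was relatively high in GC-rich genes (0.33 on the log2 scale, top against bottom GC group) while C1 replicate 2 was low (-0.41). All 6 markers of the line were above 1 CPM (counts per 1000000, scaled by TMM), VIM at 797 to 1366 CPM, though AXL had a mean of 553 CPM in untreated and 301 in treated libraries, and EGFR 441 and 321. Of 6 receptor and epithelial genes, ESR1 did not exceed 0.460 CPM, PGR 0.0867 CPM and CDH1 0.201 CPM, while ERBB2 ran from 26.6 to 52.4 CPM, EPCAM from 4.37 to 6.77 and GATA3 from 1.58 to 4.44. The summed CPM of 4 leukocyte markers was 1.07 to 1.50 in untreated and 1.80 to 3.26 in treated libraries, carried by CD14 (means 0.505 and 1.15 CPM) and CSF1R (0.652 and 1.31 CPM), with PTPRC at most 0.281 and CD3E at most 0.0300 CPM and both at 0 in at least 1 library. That of 2 endothelial markers was 0.0298 to 0.704 and 0.540 to 1.15, and that of 5 fibroblast markers 8.83 to 16.8 and 12.2 to 19.4, with DCN at 0 in at least 1 library. The part of these shifts in the results was not tested.

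Of the 45 members, 39 were detected, which means at least 10 counts in both samples of at least 1 condition, and 33 had at least 10 counts in all 12 libraries. The 6 members not detected were ABCA12, ABCB5, ABCB11, ABCC8, ABCG5 and ABCG8. ABCB11 is the bile salt export pump, ABCG5 and ABCG8 form the sterol exporter of liver and gut, and ABCC8 is the sulfonylurea receptor of beta cells. The members together held between 0.0833% and 0.111% of a library's counts. Per length, in CPM per kb of exon averaged over the 12 libraries, 19 members exceeded 1 and 16 were below 0.1.

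Per length, ABCE1 and ABCF1, both without a membrane part, led the family. ABCE1, which splits ribosomes after termination, was highest at 33.1 CPM per kb, followed by ABCF1, a partner of translation initiation, at 24.7 CPM per kb. ABCD3, which brings fatty acids into peroxisomes, was the highest transporter at 20.1 CPM per kb and lay above ABCF2 at 10.9 and ABCF3 at 6.85 CPM per kb. Of the ABCF2 exon length, 37.1% overlaps ABCF2-H2BK1 on the same strand, where reads cannot be assigned, so its level per length may be too low. The leading members of the remaining groups were lower, with ABCC4 at 5.03, ABCB10 at 4.54, ABCA2 at 3.69 and ABCG2 at 2.34 CPM per kb. ABCB10 is a transporter of the inner mitochondrial membrane, and ABCA2 is a lipid transporter of endosomes and lysosomes.

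**Figure D1:**
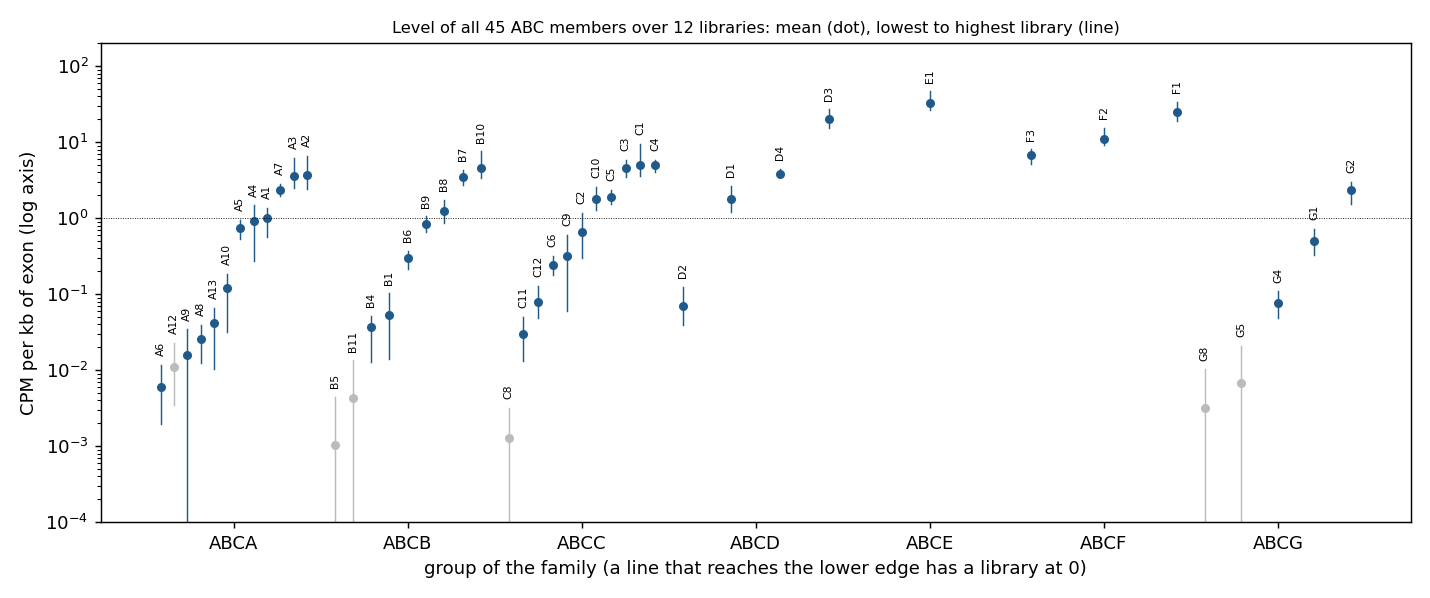
Level of all 45 members by group, in CPM per kb of exon on a log axis; dots are means over 12 libraries and lines run from the lowest to the highest library, with detected members in blue and the 6 others in grey. A line that reaches the lower edge has a library at 0, the dotted line marks 1 CPM per kb, and ABCE1, ABCF1 and ABCD3 lie above all other members.

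All 7 drug efflux members ABCB1, ABCC1, ABCC2, ABCC3, ABCC4, ABCC5 and ABCG2 were detected, and 6 of them had at least 10 counts in every library. Per length, ABCC4 (5.03 CPM per kb), a cyclic nucleotide and drug exporter, ABCC1 (4.99), an exporter of glutathione conjugates, and ABCC3 (4.62), which exports organic anions including glucuronides, were the highest, and the ranges of neighbours in this order overlapped over the libraries. ABCG2 (2.34), the breast cancer resistance protein, was below ABCC3 in 12 of 12 libraries, while its range overlapped with that of ABCC5 (1.92), which also exports cyclic nucleotides. ABCC2 (0.657), the canalicular anion exporter, followed, and ABCB1 was the lowest at 0.0533 CPM per kb, with ABCC2 above ABCB1 12.3-fold in the means and in 12 of 12 libraries. These levels are descriptions of RNA, in which fewer cells with a transcript and less RNA per cell cannot be told apart.

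ABCB1 had 8 and 3 counts in C1, 10 and 15 in C2, 23 and 23 at 0.0005 μM, 30 and 25 at 0.005 μM, 39 and 39 at 0.05 μM and 26 and 36 at 0.5 μM. In CPM it stood at 0.112 and 0.0895 in C1, 0.164 and 0.276 in C2, 0.306 and 0.391 at 0.0005 μM, 0.354 and 0.310 at 0.005 μM, 0.548 and 0.509 at 0.05 μM and 0.390 and 0.662 at 0.5 μM. Every treated library was above every untreated library, with C1 lowest. Over the 8 treated and 4 untreated libraries ABCB1 was 2.62-fold higher (log2 1.39, SE 0.33, adjusted p = 0.00568). No single dose passed the test against C2, with a log2 difference of 1.25 at 0.5 μM (95% interval 0.39 to 2.11, adjusted p = 0.0835). Against the day 4 untreated libraries alone the difference over all 8 treated libraries was 0.98 and did not pass (adjusted p = 0.101), while at 0.5 μM it passed without C1 replicate 1 (1.24, adjusted p = 0.0466) or without C1 replicate 2 (1.24, adjusted p = 0.0476).

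ABCC2 stood at 2.59 and 2.36 CPM in C1, 3.39 and 3.68 in C2, 4.57 and 3.98 at 0.0005 μM, 6.04 and 6.76 at 0.005 μM, 5.94 and 7.28 at 0.05 μM and 6.06 and 9.18 at 0.5 μM. The treated and untreated libraries did not overlap. ABCC2 rose at 0.005 μM (log2 0.86, SE 0.21, adjusted p = 0.047), 0.05 μM (0.90, SE 0.21, adjusted p = 0.0216) and 0.5 μM (1.11, SE 0.21, adjusted p = 0.0121), but not at 0.0005 μM (0.28, 95% interval -0.18 to 0.74). Its slope over the doses was 0.25 per 10-fold dose and did not pass (adjusted p = 0.0565).

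ABCG2 stood at 11.6 and 14.7 CPM in C1, 9.20 and 8.57 in C2, 11.1 and 11.9 at 0.0005 μM, 12.2 and 14.5 at 0.005 μM, 16.9 and 14.3 at 0.05 μM and 16.7 and 15.7 at 0.5 μM. C2 was the lowest condition, and the C1 libraries lay within the treated range of 11.1 to 16.9 CPM. Against C2, ABCG2 rose at 0.05 μM (log2 0.81, SE 0.16, adjusted p = 0.0122) and at 0.5 μM (0.86, SE 0.16, adjusted p = 0.0123), and it rose with dose among the 8 treated libraries by 0.17 per 10-fold dose (SE 0.04, adjusted p = 0.042). Over 8 treated and 4 untreated libraries it did not pass (0.37, 95% interval 0.05 to 0.68, adjusted p = 0.0857), and with C2 as the only untreated libraries it did (0.68, adjusted p = 0.00979), as it did without C1 replicate 2 (0.55, adjusted p = 0.00835). At 0.05 μM it did not pass without either C2 library (0.86 and 0.75, adjusted p = 0.0921 and 0.0875) or without replicate 1 of that dose (0.67, adjusted p = 0.0928). At 0.5 μM it did not pass without either C2 library (0.91 and 0.80, adjusted p = 0.103 and 0.0768) or without either library of that dose (0.79 and 0.90, adjusted p = 0.0822 and 0.0794), and the slope lost its call in 9 of 13 alternatives (0.15 to 0.19, adjusted p up to 0.303). C2 was lower than C1 by 0.56 without passing the test (95% interval -0.92 to -0.20, adjusted p = 0.302).

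ABCC1, ABCC3, ABCC4 and ABCC5 passed no test against either reference. ABCC1 ranged from 31.6 to 50.01 CPM in treated and from 31.3 to 82.6 CPM in untreated libraries, and C1 replicate 1 held the highest value (its exons are 53.8% GC). The treated and untreated ranges were 33.7 to 56.3 and 35.5 to 52.9 CPM for ABCC3, 35.1 to 50.4 and 40.5 to 49.2 CPM for ABCC4, and 17.3 to 23.6 and 18.4 to 26.9 CPM for ABCC5. The interval of the log2 difference over all treated libraries was -0.80 to -0.01 for ABCC1, -0.28 to 0.26 for ABCC3, -0.27 to 0.16 for ABCC4 and -0.36 to 0.10 for ABCC5. In this pooled contrast differences beyond 2-fold were outside the intervals of all 4 members, while against C2 the interval of ABCC1 reached -1.12 at 0.0005 μM, -1.02 at 0.005 μM and -1.08 at 0.5 μM. ABCC1 passed as lower without C1 replicate 2 over the treated libraries (-0.56, adjusted p = 0.0251) and at 0.5 μM without C1 replicate 1 (-0.40, adjusted p = 0.0406) or replicate 2 (-0.40, adjusted p = 0.0353).

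**Figure D2:**
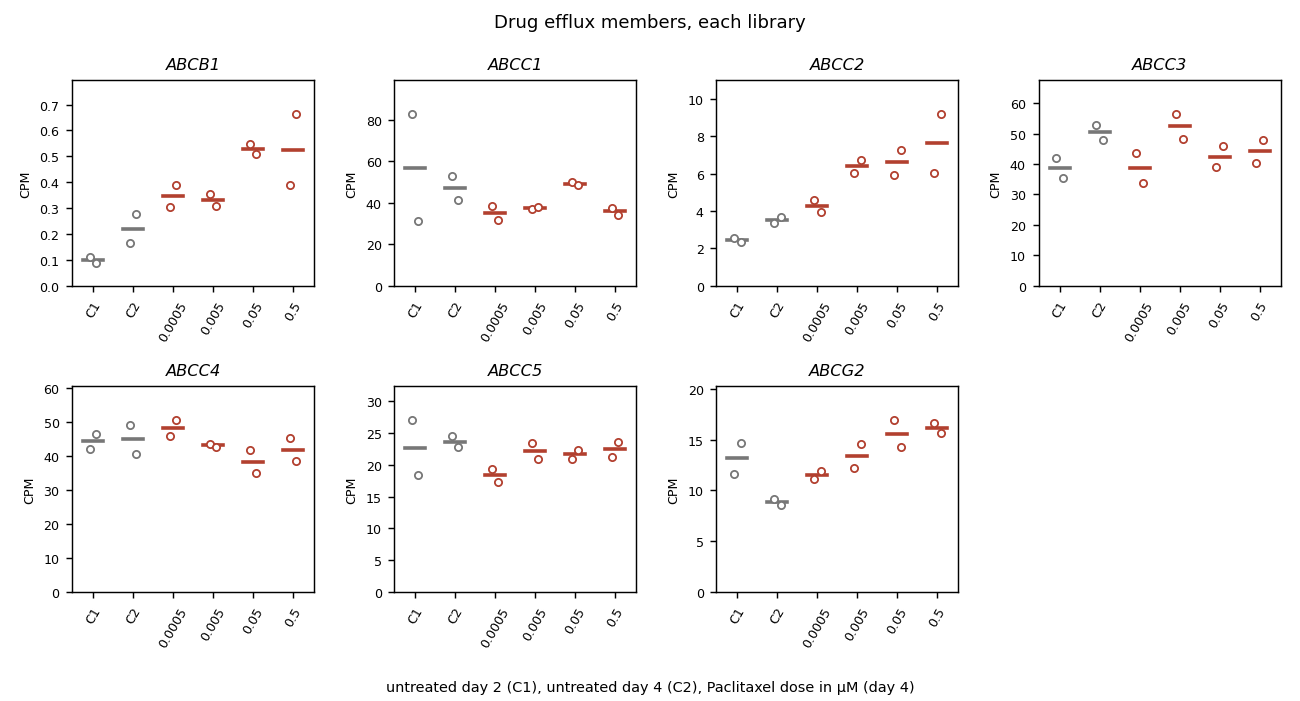
CPM of the 7 drug efflux members in every library (circles) with the mean of each condition (bars), untreated in grey and treated in red. ABCB1 and ABCC2 were higher in all treated than in all untreated libraries, ABCG2 was lowest in C2 and 15.7 to 16.7 CPM at 0.5 μM, and ABCC1, ABCC3, ABCC4 and ABCC5 overlapped.

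Over the whole family, 40 members were tested. At 0.0005 μM 4 members passed the test against C2, all higher and 0 lower by edgeR's quasi-likelihood test (12 at an unadjusted p under 0.05, and 4 called by DESeq2), where 2.34% of all 25249 tested genes passed, 1.87% higher and 0.479% lower. At 0.005 μM 6 members were higher and 0 lower by edgeR (11 at an unadjusted p under 0.05, and 8 called by DESeq2), beside 3.28% of all genes, 2.5% higher and 0.776% lower. At 0.05 μM 7 were higher and 2 lower, beside 8.32% of all genes, 5.09% higher and 3.23% lower. At 0.5 μM 7 were higher and 0 lower by edgeR (15 at an unadjusted p under 0.05, and 9 called by DESeq2), beside 6.32% of all genes, 4.36% higher and 1.96% lower. The 4 comparisons share the C2 libraries. ABCA1, ABCA13 and ABCC9 passed at all 4 doses, ABCA10 and ABCC2 at 3, ABCG2 at 2, and ABCB10 and ABCD3 at 1. The higher members at each dose also include ABCA9, which entered the test only through the treated libraries, since it had 3 counts in all untreated libraries together, so that its calls carry no weight of their own. The median log2 difference over the tested members was -0.07 at 0.5 μM, beside 0.04 over all tested genes.

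ABCC9, the sulfonylurea receptor subunit of potassium channels in muscle and vessels, had the lowest p of all members at each dose. It stood at 1.04 and 1.10 CPM in C1, 1.36 and 2.15 in C2, 5.20 and 5.08 at 0.0005 μM, 6.76 and 7.10 at 0.005 μM, 9.86 and 10.5 at 0.05 μM and 7.09 and 8.85 at 0.5 μM. The treated libraries were all above the untreated ones, and 0.05 μM was the highest condition. ABCC9 rose 2.94-fold at 0.0005 μM (log2 1.56, SE 0.21, adjusted p = 0.00217), 3.96-fold at 0.005 μM (1.99, SE 0.21, adjusted p = 0.000541), 5.82-fold at 0.05 μM (2.54, SE 0.21, adjusted p = 5.9e-05) and 4.55-fold at 0.5 μM (2.19, SE 0.21, adjusted p = 0.000294). Of the pore partners of ABCC8 and ABCC9, KCNJ8 (0.40, SE 0.21, adjusted p = 0.18) and KCNJ11 (0.33, SE 0.26, adjusted p = 0.368) did not pass over all treated libraries.

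ABCA1, which loads cellular cholesterol onto apolipoproteins, stood at 6.56 and 6.44 CPM in C1, 8.09 and 7.19 in C2, 12.7 and 12.4 at 0.0005 μM, 13.8 and 13.3 at 0.005 μM, 11.8 and 15.6 at 0.05 μM and 12.8 and 14.4 at 0.5 μM. The groups did not overlap, and the means of the treated conditions ran from 12.5 to 13.7 CPM. ABCA1 rose by a log2 difference of 0.71 (SE 0.16, adjusted p = 0.0391) at 0.0005 μM and 0.83 (SE 0.16, adjusted p = 0.0133) at 0.5 μM. ABCG1, which passes cholesterol to HDL, stood at 3.25 and 2.27 CPM in C1, 4.42 and 2.43 in C2, 4.10 and 3.59 at 0.0005 μM, 3.42 and 2.84 at 0.005 μM, 2.99 and 2.81 at 0.05 μM and 2.36 and 2.01 at 0.5 μM. Among the treated libraries ABCG1 fell with dose by 0.25 per 10-fold dose (SE 0.06, adjusted p = 0.0281), while no dose passed against C2 (at 0.5 μM -0.65, 95% interval -1.25 to -0.06, adjusted p = 0.179). The slope of ABCG1 lost its call without any 1 of the 4 libraries of 0.0005 and 0.5 μM (-0.28 to -0.22, adjusted p up to 0.242). ABCG1 and ABCG2 were the 2 of 40 members whose slope passed in this fit, beside 3.06% of all genes, 1.02% with a rising and 2.04% with a falling slope.

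ABCA9 and ABCA10 belong to a run of related genes on chromosome 17, where ABCA8, ABCA9, ABCA6, ABCA10 and ABCA5 lie next to each other on the minus strand between 66863430 and 67323385 (GRCh37); they are thought to carry lipids. ABCA10 stood at 0.267 and 0.686 CPM in C1, 0.491 and 0.405 in C2, 0.984 and 0.952 at 0.0005 μM, 1.25 and 1.45 at 0.005 μM, 1.56 and 1.42 at 0.05 μM and 1.29 and 1.45 at 0.5 μM. All treated libraries were above the untreated ones, and ABCA10 rose 3.04-fold at 0.5 μM (log2 1.60, SE 0.33, adjusted p = 0.0183). ABCA9 had 3 and 0 counts in C1, 0 and 0 in C2, 14 and 11 at 0.0005 μM, 19 and 18 at 0.005 μM, 10 and 24 at 0.05 μM and 9 and 14 at 0.5 μM. Since C2 held no count, against a floor of 3 counts over both C2 libraries ABCA9 was at least 7.18-fold higher at 0.0005 μM, at least 8.6-fold at 0.005 μM, at least 8.85-fold at 0.05 μM and at least 7.31-fold at 0.5 μM. The neighbours showed overlapping ranges in untreated and treated libraries, with ABCA8 at 0.141 to 0.442 and 0.225 to 0.401 CPM, ABCA6 at 0.0281 to 0.0895 and 0.0552 to 0.165 CPM, and ABCA5 at 6.91 to 12.6 and 7.01 to 12.5 CPM. ABCA10 shares 318 bases of exon with ABCA5 on the same strand, and 5.9% of the ABCA9 exon length lies opposite an antisense gene. Reads in the first stretch cannot be assigned by strand, and those in the second only where counting uses it.

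ABCA13, a very long member of uncertain substrate, stood at 0.197 and 0.418 CPM in C1, 0.278 and 0.368 in C2, 1.09 and 0.884 at 0.0005 μM, 1.12 and 1.15 at 0.005 μM, 1.17 and 1.25 at 0.05 μM and 0.826 and 0.773 at 0.5 μM. The groups did not overlap, and the 0.5 μM libraries were the lowest of the treated ones. ABCA13 rose 3.07-fold at 0.0005 μM (log2 1.62, SE 0.32, adjusted p = 0.0202) and 2.48-fold at 0.5 μM (1.31, SE 0.33, adjusted p = 0.0374).

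Against C2, the lower members were ABCD3 and ABCB10, at 1 dose. ABCD3 stood at 184 and 207 CPM in C1, 178 and 173 in C2, 144 and 151 at 0.0005 μM, 140 and 143 at 0.005 μM, 125 and 118 at 0.05 μM and 146 and 140 at 0.5 μM. ABCB10 stood at 32.3 and 23.6 CPM in C1, 24.7 and 23.1 in C2, 17.1 and 16.7 at 0.0005 μM, 15.9 and 15.7 at 0.005 μM, 16.7 and 14.4 at 0.05 μM and 17.4 and 14.9 at 0.5 μM. For both genes every treated library was below every untreated one, though only 0.05 μM passed against C2, with a log2 difference of -0.53 (SE 0.13, adjusted p = 0.0253) for ABCD3 and -0.62 (SE 0.17, adjusted p = 0.0387) for ABCB10.

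**Figure D3:**
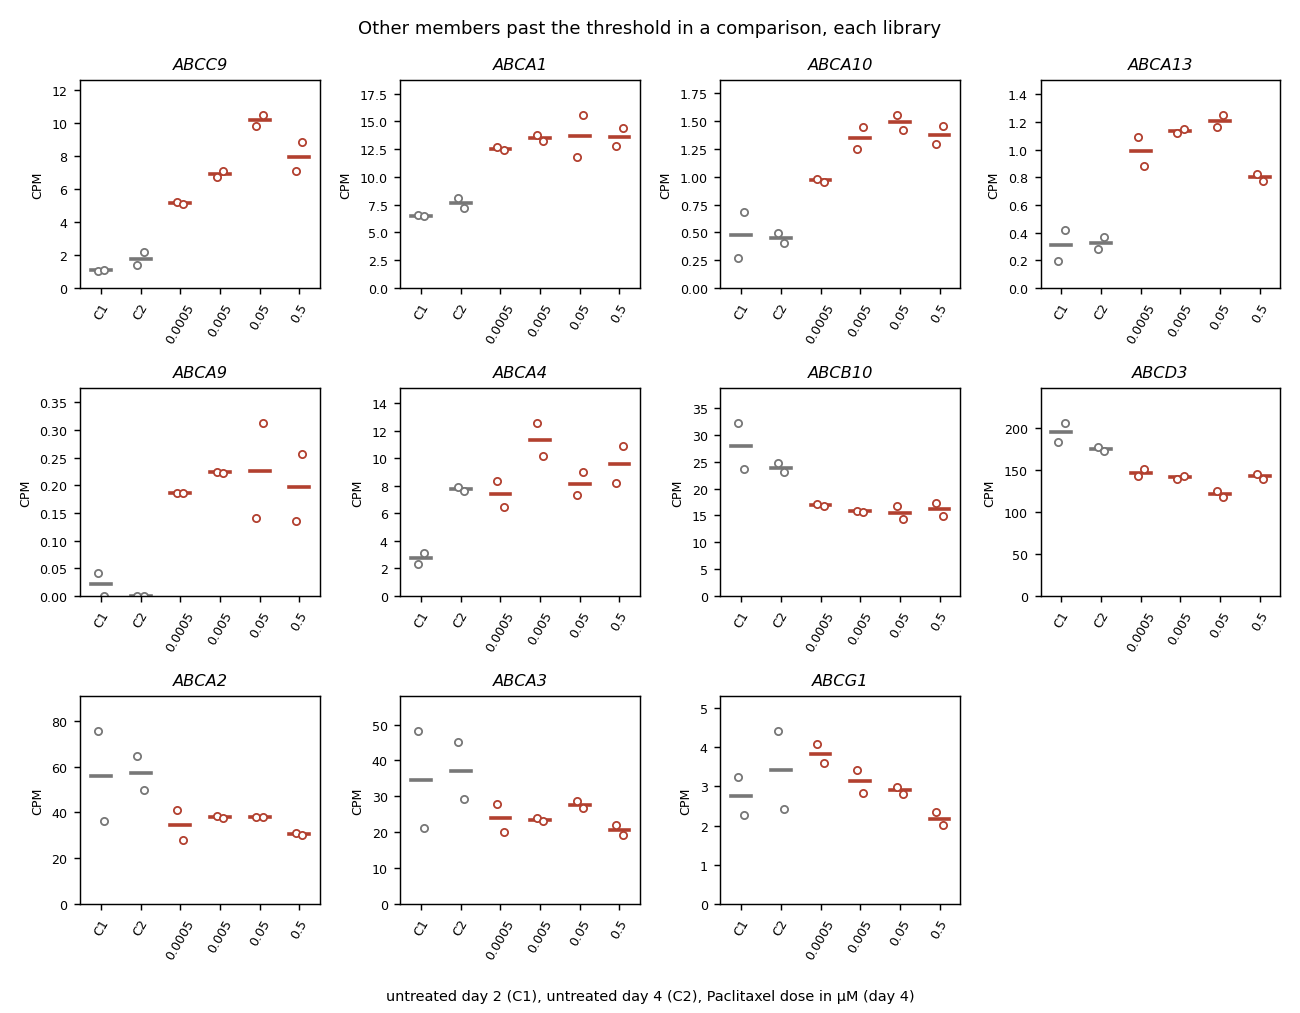
CPM of the other 11 members that passed a test, in every library (circles) with the mean of each condition (bars), untreated in grey and treated in red. ABCC9, ABCA1, ABCA10, ABCA13 and ABCA9 were higher in all treated libraries, ABCB10 and ABCD3 lower, and ABCA4 was low only in C1, at 2.35 and 3.10 CPM.

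These calls depend on single libraries. Without C2 replicate 1 or without C2 replicate 2, 1 member was called at 0.0005 μM and at 0.5 μM, and 1 or 2 at 0.005 and 0.05 μM. Without either replicate of the dose itself 1 was called at 0.0005 and 0.005 μM, without Paclitaxel 0.05 μM replicate 2 there were 3 at 0.05 μM, and without Paclitaxel 0.5 μM replicate 1 or 2 there were 3 or 1 at 0.5 μM. Without either 0.005 μM library 2 members were called at 0.0005 μM. Without C1 replicate 1 or without C1 replicate 2, 11, 11 and 14 were called at 0.0005, 0.005 and 0.5 μM. The count over all genes moved in the same direction, at 0.5 μM from 1596 to 4955 or 5046 genes without C1 replicate 1 or 2, and to 129 or 569 without C2 replicate 1 or 2. At 0.0005 μM it went from 592 to 2472 or 2552 genes and to 144 or 248, and at 0.005 μM from 827 to 3316 or 3231 and to 85 or 304. ABCC9 passed at each dose under all 19 alternatives, with an adjusted p of at most 0.0335 at 0.0005 μM and 0.00462 at 0.5 μM. ABCA13 lost its call at 0.5 μM in 10 of 19 alternatives (log2 difference 1.11 to 1.51, adjusted p up to 0.292), and so did ABCB10 at 0.05 μM (-0.75 to -0.55, adjusted p up to 0.243). ABCD3 lost its call at 0.05 μM in 7 alternatives (-0.58 to -0.40, adjusted p up to 0.171). At 0.5 μM the values of ABCA1 (0.74 to 0.92, adjusted p up to 0.134), ABCC2 (0.78 to 1.35, adjusted p up to 0.144) and ABCA10 (1.47 to 1.75, adjusted p up to 0.126) kept their sign in all 19, losing the call in 4, 3 and 4. At lower doses, ABCA1 at 0.0005 μM (0.62 to 0.80, adjusted p up to 0.244) and ABCC2 at 0.005 μM (0.77 to 0.93, adjusted p up to 0.316) each lost the call in 8 of 19. ABCA9 lost its call in 6 of 19 alternatives at 0.0005 μM, 4 of 19 at 0.005 μM and 3 of 18 at both higher doses. The call of ABCA13 at 0.0005 μM was lost in 4 of 19 (log2 difference 1.425 to 1.816), and that of ABCC2 at 0.05 μM in 3 of 19 (0.722 to 1.034).

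Over the 8 treated against the 4 untreated libraries, 8 members were higher and 4 lower, beside 24.4% of all genes called, 13.1% higher and 11.3% lower. The untreated side here includes the day 2 libraries, and with C2 alone 11 members and 3408 of all genes were called. Without C1 replicate 1 the count was 10 members and 4182 genes, and without C1 replicate 2 it was 16 members and 7078 genes, beside 6155 genes with all libraries. The higher members were ABCC9 (log2 2.41, SE 0.24, adjusted p = 8e-06), ABCA13 (1.76, SE 0.23), ABCA10 (1.54, SE 0.23), ABCB1, ABCC2 (1.05, SE 0.20), ABCA1 (0.91, SE 0.11), ABCA9 and ABCA4, and the lower ones ABCB10 (-0.69, SE 0.10, adjusted p = 0.00015), ABCA2 (-0.68, SE 0.15, adjusted p = 0.00408), ABCA3 (-0.59, SE 0.17, adjusted p = 0.0206) and ABCD3 (-0.42, SE 0.09, adjusted p = 0.00359). ABCA9 had 119 counts in the treated and 3 in the untreated libraries, a ratio of 15.4 with a counting interval of 5.13 to 75.5. ABCA9 is counted here too, although it entered the test only through the treated libraries. Of the 40 tested members, in 7, ABCA9 included, all treated libraries were above all untreated ones (7.39% of all tested genes) and in 2 all were below (5.77%). The untested ABCC8 and ABCG5 also had all treated libraries above all untreated ones.

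Genes at low levels rose broadly in this contrast. Among the tested genes with a mean under 1 CPM, 22.2% were higher and 1.01% lower, with a median log2 difference of 0.43, and 3 of the 11 members in that range were higher, namely ABCA9, ABCA13 and ABCB1. Among genes of at least 10 CPM, 3.7% were higher and 21.3% lower with a median of -0.15, and of the 20 members in that range ABCA1 was higher and ABCA2, ABCA3, ABCB10 and ABCD3 were lower. In both ranges the members' shares were near those of all genes of that level. Between 1 and 10 CPM, 15.6% of genes were higher and 9.71% lower with a median of 0.03, while 4 of the 9 members, ABCA4, ABCA10, ABCC2 and ABCC9, were higher and 0 lower. The part of this shift in the members' values was not tested.

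ABCA2 stood at 75.6 and 36.4 CPM in C1, 64.6 and 49.99 in C2, and between 28.1 and 41.1 in the treated libraries. ABCA3, a lipid transporter best known from lung surfactant, stood at 48.2 and 21.1 CPM in C1, 45.1 and 29.2 in C2, and between 19.3 and 28.7 in the treated libraries. C1 replicate 2 lay within the treated range for both. The exons of ABCA2 are 64.8% GC and those of ABCA3 60.1%, and C1 replicate 1, relatively high in GC-rich genes, held the highest value of each. With GC and length offsets both genes kept the call over the treated libraries. Without C1 replicate 1, ABCA3 no longer passed (-0.42, adjusted p = 0.108), nor did it without C2 replicate 1 (-0.47, adjusted p = 0.0888). ABCA2 kept its call under all 18 alternatives.

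Of the 28 tested members not called over all treated libraries, 23 had an interval inside a 2-fold change in either direction. ABCE1 was 203 to 292 CPM in untreated and 168 to 218 CPM in treated libraries (-0.30, SE 0.11, adjusted p = 0.0514), and ABCF1 was 85.8 to 154 and 97.8 to 124 CPM (-0.08, SE 0.13, adjusted p = 0.684). Of the members not detected, ABCB11 had 29 counts in treated and 0 in untreated libraries, a ratio of 3.74 against a floor of 3 untreated counts. ABCG5 had 22 and 0 counts, a ratio of 2.84 against the same floor. Both ratios leave out the counting error of the treated libraries. ABCC8 had 29 and 1, a ratio of 11.2 (counting interval 1.86 to 459), and ABCG8 had 24 and 2, a ratio of 4.65 (1.15 to 40.6). ABCB5 (7 and 1 counts, interval 0.348 to 122) and ABCA12 (68 and 18, interval 0.86 to 2.61) had intervals that include no change. These intervals cover counting error only.

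**Figure D4:**
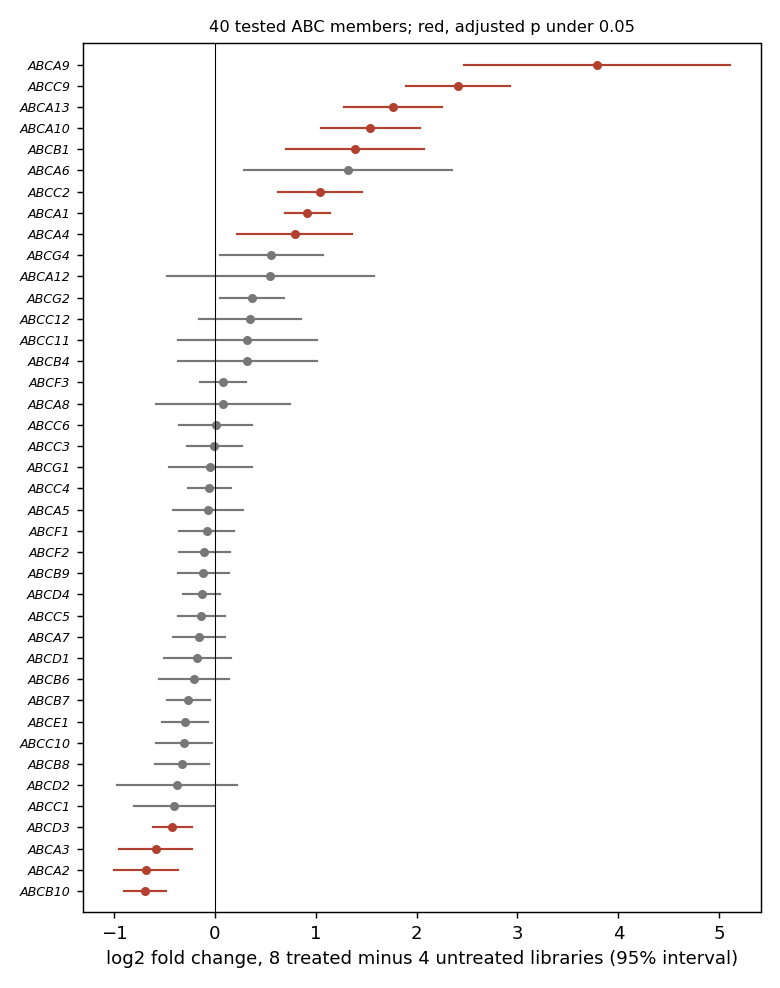
Log2 fold change of the 40 tested members, 8 treated minus 4 untreated libraries, with 95% intervals from the edgeR fit; members with an adjusted p under 0.05 are red. ABCA9 and ABCC9 are the highest, with ABCA9 resting on 3 untreated counts, and ABCB10, ABCA2, ABCA3 and ABCD3 are the 4 lower members.

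Between the untreated days, 1 of 40 members passed, beside 0.325% of all genes, 0.321% of them higher on day 4. ABCA4, the retinoid transporter of photoreceptors, stood at 2.35 and 3.10 CPM in C1 and 7.89 and 7.62 CPM in C2, so that day 4 was 2.88-fold higher (log2 1.53, SE 0.23, adjusted p = 0.0109). The treated libraries, also of day 4, held 6.45 to 12.6 CPM and overlapped with C2. The higher value of ABCA4 over the treated libraries (0.79, SE 0.27, adjusted p = 0.0408) fell to 0.25 against C2 alone and did not pass (adjusted p = 0.432). That call was lost in 9 of 18 alternatives, among them without C1 replicate 1 (0.53, adjusted p = 0.130) and without C1 replicate 2 (0.63, adjusted p = 0.145). The call between the days was lost when the 4 untreated libraries were fitted alone (1.51, adjusted p = 0.848), without C2 replicate 1 (1.50, adjusted p = 0.0833) and without C2 replicate 2 (1.56, adjusted p = 0.0558).

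Promoter windows are shown for the members on which these results turn, ABCC9, ABCA1, ABCC2 and ABCG2, which rose, and for ABCB1. Each holds the 250 bases before an annotated RefSeq start on GRCh38.p14, 5′ to 3′ on the strand of the gene, and capitals mark matches on either strand to the motifs that were searched. These were the GC box, written GGGCGG, and the box named by its letters CCAAT. Also searched were the E-box, written CACGTG, and the core TATA box, written TATAAA. The AP-1 site was searched as TGANTCA, where N is any base, and the core of the antioxidant response element as TGACNNNGC. The DR4 LXR site was searched as AGGTCA repeated after 4 bases. The windows are chr12:21941427-21941676 on the minus strand for ABCC9, chr9:104928156-104928405 minus for ABCA1, chr10:99782390-99782639 plus for ABCC2, chr4:88158910-88159159 minus for ABCG2 (of 5 listed) and chr7:87600885-87601134 minus for ABCB1 (of 2 listed). Where several were listed, the one with most matches was taken among those that hold no other listed start.
ABCC9: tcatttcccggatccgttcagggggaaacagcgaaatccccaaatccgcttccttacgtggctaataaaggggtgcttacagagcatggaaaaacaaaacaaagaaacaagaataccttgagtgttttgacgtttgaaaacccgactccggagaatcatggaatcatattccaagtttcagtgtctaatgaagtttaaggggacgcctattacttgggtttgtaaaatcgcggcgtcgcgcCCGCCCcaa
ABCA1: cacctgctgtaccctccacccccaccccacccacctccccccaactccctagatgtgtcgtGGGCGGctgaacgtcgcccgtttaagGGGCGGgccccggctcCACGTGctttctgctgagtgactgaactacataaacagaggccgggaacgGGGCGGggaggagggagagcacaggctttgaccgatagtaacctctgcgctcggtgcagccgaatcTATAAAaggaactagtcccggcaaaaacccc
ABCC2: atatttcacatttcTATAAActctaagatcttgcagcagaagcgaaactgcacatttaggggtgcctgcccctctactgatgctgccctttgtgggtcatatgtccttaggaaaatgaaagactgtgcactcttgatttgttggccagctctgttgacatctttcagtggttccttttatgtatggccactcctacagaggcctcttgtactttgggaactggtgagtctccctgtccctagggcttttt
ABCG2: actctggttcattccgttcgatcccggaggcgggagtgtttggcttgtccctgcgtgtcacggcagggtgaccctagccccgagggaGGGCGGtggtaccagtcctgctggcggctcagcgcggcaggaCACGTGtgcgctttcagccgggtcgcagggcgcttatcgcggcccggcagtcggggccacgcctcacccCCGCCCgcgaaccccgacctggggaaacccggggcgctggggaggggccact
ABCB1: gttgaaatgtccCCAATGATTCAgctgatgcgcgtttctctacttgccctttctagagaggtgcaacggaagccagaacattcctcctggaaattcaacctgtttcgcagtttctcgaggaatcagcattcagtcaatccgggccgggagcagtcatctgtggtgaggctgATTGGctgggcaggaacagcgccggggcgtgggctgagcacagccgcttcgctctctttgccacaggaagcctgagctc
The ABCA1 window held 3 GC boxes, 1 E-box and 1 TATA box, and the ABCG2 window 2 GC boxes and 1 E-box. The ABCC9 window held 1 GC box and the ABCC2 window 1 TATA box. The ABCB1 window held 2 CCAAT boxes and 1 AP-1 match, which shares 1 base with the first CCAAT box. No motif searched was in all 5 windows. Of all 35116 listed windows, 42.6% held a GC box, 32.0% a CCAAT box, 6.34% an E-box and 10.7% a TATA box. An AP-1 match was in 6.57% and the antioxidant response element core in 10.9%. Over the 53 windows of 35 members, 25 held a GC box, 11 a CCAAT box, 9 an E-box, 6 a TATA box, 5 an AP-1 match and 9 the antioxidant core. The exact LXR letters were in 0 of the 53 windows and in 0.0142% of all windows. Sites that differ from these letters in any base were not searched. Whether the ABCA1 window or others hold such a site is not shown.

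Family genes whose symbols differ were CFTR, the chloride channel, and TAP1 and TAP2, which load peptides for MHC class I. CFTR had 41 counts in all and was not tested. Over the treated libraries TAP1 was higher, at 64.2 ± 8.98 CPM (SD, n = 8) against 46.5 ± 6.67 CPM (SD, n = 4), with a log2 difference of 0.47 (SE 0.12, adjusted p = 0.0102). TAP2 was lower, at 28.4 ± 3.17 against 39.2 ± 11.7 CPM (-0.47, SE 0.14, adjusted p = 0.0205). Neither passed against C2 at any dose. In order of rising dose, the TAP1 differences were 0.55, 0.33, 0.23 and 0.07 (SE 0.14 each), and it fell with dose among the treated libraries (-0.15 per 10-fold dose, SE 0.04, adjusted p = 0.0364), while TAP2 was -0.45 (SE 0.23) at 0.5 μM.

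Among 16 tested genes of cholesterol efflux and its control, 2 were higher and 6 lower over the treated libraries, with a median of -0.33, beside 13.1% of all genes higher and 11.3% lower. APOE, a lipid acceptor for ABCA1, rose to 2.64 ± 0.563 from 1.15 ± 0.261 CPM (1.18, SE 0.20, adjusted p = 0.000543), and MYLIP, which marks the LDL receptor for degradation, rose to 31.4 ± 2.26 from 20.2 ± 3.78 CPM (0.63, SE 0.11, adjusted p = 0.000755). Among the lower genes, named here after their values were seen, were LPCAT3, a phospholipid remodelling enzyme (-0.54, SE 0.12, adjusted p = 0.00411), SREBF2, the main activator of sterol synthesis genes (-0.59, SE 0.14, adjusted p = 0.0065), INSIG1, a brake on sterol synthesis (-0.57), SCARB1, an HDL receptor (-0.56), and RXRA, a partner of nuclear receptors (-0.58). At 0.5 μM, where 6.32% of all genes were called, 1 was higher (APOE) and 2 lower, VLDLR, a lipoprotein receptor (-0.71, SE 0.13, adjusted p = 0.0111), and INSIG1 (-0.98, SE 0.18, adjusted p = 0.0114).

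Among 13 tested genes of xenobiotic sensing and Paclitaxel handling, 3 were higher and 1 lower over the treated libraries, with a median of 0.04, beside 24.4% of all genes called. CYP3A5, a drug-oxidizing enzyme, rose to 6.49 ± 1.35 from 2.17 ± 0.813 CPM (1.58, SE 0.22, adjusted p = 0.000104) and passed at all 4 doses, with 1.02 at 0.5 μM (SE 0.20, adjusted p = 0.0125). CYP2C8, the main Paclitaxel hydroxylase of liver, had a mean of 0.139 CPM in treated and 0.0272 CPM in untreated libraries (2.27, SE 0.59, adjusted p = 0.0104), and CYP3A4 had 0.147 and 0.0245 CPM (2.35, SE 0.62, adjusted p = 0.0117). Both stood below the filter in the untreated libraries and entered the test only through the treated ones, so their calls, which are 2 of the 3 higher, carry no weight of their own. Related CYP genes share sequence, so these low counts are uncertain. The lower gene was SLCO1B1, a liver uptake carrier, named after its value was seen (-0.71, SE 0.24, adjusted p = 0.0421).

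In 5 partner lists of the other groups, 1 or 2 genes each passed over the treated libraries, beside 24.4% of all genes called. Of 9 glutathione genes, which supply ABCC substrates, GCLC, which makes the limiting step of glutathione synthesis, was higher (0.36, SE 0.09, adjusted p = 0.00763) and GSS, the next enzyme, lower (-0.36, SE 0.09, adjusted p = 0.00648). Of 9 peroxisome partners of the ABCD group, HSD17B4, a beta-oxidation enzyme, was lower (-0.32, SE 0.11, adjusted p = 0.0363). Of 10 mitochondrial iron, heme and cobalamin partners, ALAS1, the first enzyme of heme synthesis, was higher (0.37, SE 0.12, adjusted p = 0.0283) and FECH, the last, lower (-0.34, SE 0.10, adjusted p = 0.0228). Of 10 ribosome partners, EIF2AK4, an amino acid sensor kinase, was lower (-0.25, SE 0.09, adjusted p = 0.0469), and of 4 peptide loading partners CALR, an ER chaperone, was lower (-0.41, SE 0.14, adjusted p = 0.0448). At 0.5 μM these 5 lists had 0 genes past edgeR's test, and 2, 2, 2, 1 and 1 of them at an unadjusted p under 0.05.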

How the data were processed

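RNA was measured in 12 samples of MDA-MB-231, 2 per condition. The authors trimmed reads with Trimmomatic 0.39, checked them with FastQC 0.11.9, aligned them to hg19 (GRCh37) with STAR 2.7.5, kept unique alignments and deposited raw counts of reads in exons of 63568 genes, neither normalized nor pooled. Strand use in counting is not given in the sources used here. Symbols were matched for 55665 identifiers, and lengths and coordinates come from GENCODE release 44 lifted to GRCh37.

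Counts were analysed in R 4.3.3 with edgeR 4.0.16 (TMM, filterByExpr with a minimum count of 10, robust quasi-likelihood test, two-sided, Benjamini-Hochberg over all 25249 tested genes, called at adjusted p under 0.05). Each dose against C2, and C2 against C1, came from 1 model of 12 samples, while 8 treated against 4 untreated and the dose slope (per 10-fold dose, treated samples only) had their own fits. SE was taken as |log2 fold change| divided by the root of the F statistic, with 95% intervals. The common biological coefficient of variation was 15.6%. An exact permutation of 2 against 2 samples cannot go below p = 0.333. The scripts were tested on simulated data.

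The members, lists and named genes were chosen with earlier results of these data known. Named with values were the 7 efflux members, each member called in any of 7 comparisons, the leading member per length of each group, and up to 3 called genes per list. Alternatives were DESeq2 1.42.0, RLE scaling, no filter, a replicate block, GC and length offsets (smooth fits per library), subsets of samples and leaving out each sample. Deviations of same-numbered replicates correlated above 0.1 in 8 of 15 pairs of conditions and not in the others (r from -0.60 to 0.70, median 0.15), so the numbers were not treated as pairs. Intervals from counts cover counting error only.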

Additional observations from a re-analysis of the deposited data

Results flagged for a closer look

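Among 80 groups of samples examined (each tested member in the 4 untreated and in the 8 treated libraries), 2 held a value far from the others, where chance gives about 1 in 20 groups. ABCA9 was at 0.0421 CPM in C1 replicate 1 and at 0 in the other untreated libraries, which is 3 counts against none. Since the other untreated values were tied at 0, any count there would be flagged, and the rate of 1 in 20 does not apply to it. ABCC12, a little-studied ABCC member, was at 0.478 CPM in C1 replicate 1 and at 0.699 to 0.746 CPM in the other untreated libraries. C1 replicate 1 is also the library highest in GC-rich genes, and the part of that in these values was not tested.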

How the results depend on the processing

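Over all alternatives of single members, 790 values kept their direction and side of the threshold, 130 lost the call, 9 gained one and 8 changed sign. At 0.0005 μM, 7 members were called with no filter, and 11 with the 4 samples alone or, chosen after seeing the data, with both C1 samples left out (4 called in the full model). At 0.005 μM the last 2 settings also gave 11, and at 0.5 μM leaving out C1 gave 14. C2 against C1 gave 0 with its 4 samples alone. The slope gave 4 members by DESeq2, 4 with no filter, 1 with RLE scaling and 1 with the replicate block, where ABCG2 did not pass (adjusted p = 0.0784). Without 1 replicate, the counts ran from 1 to 11 at 0.0005 μM, 1 to 11 at 0.005 μM, 1 to 12 at 0.05 μM, 1 to 14 at 0.5 μM, 0 to 7 for C2 against C1, 10 to 16 for treated against untreated and 0 to 2 for the slope. The counts over all genes also ranged widely, from 144 to 2552, 85 to 3316, 321 to 4843, 129 to 5046, 47 to 2682, 4182 to 7078 and 123 to 990 genes in the same order. The causes were not tested. The replicate numbers share no stated origin, and under the block the slope count over all genes was 420 against 773 without it, while the other counts of called members and of called genes, in the remaining 6 comparisons, were within 1.5 times of those without it.

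The sign changes were all in members near 0. With GC and length offsets ABCC5 at 0.5 μM was 0.0077 and ABCC3 over the treated libraries 0.049. Without 1 replicate ABCC4 at 0.5 μM ran from -0.25 to 0.047, positive without C2 replicate 1 or Paclitaxel 0.5 μM replicate 2, and ABCC3 over the treated libraries from -0.086 to 0.080, positive without C2 replicate 1, C2 replicate 2, Paclitaxel 0.0005 μM replicate 2 or Paclitaxel 0.05 μM replicate 1. With 2 samples a condition and ABCB1, ABCA9 and the undetected members under 40 counts a library, depth limits what can be said of them.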
